A study of Arabidopsis thaliana with 16 samples.

Results

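The NBS-LRR genes of *Arabidopsis thaliana* were taken as the protein-coding genes of the TAIR10.1 annotation whose product name contains NBS-LRR or NB-ARC, and 141 of 27444 protein-coding genes met this rule. By the same product names, 91 were of the TIR class, 25 were of the CC class and 25 named no such end and are called unclassed here. RPM1, RPS2, RPP13, SUMM2, LOV1 and RPP7, studied as CC receptors, are among the unclassed. The CC class therefore holds only genes whose product name gives it, and not all CC receptors. A gene was taken as the stretch between its transcription start site and its end, with a median length of 4445 bp in the NBS-LRR genes and 2072 bp in the other 27303 protein-coding genes. The 5 chromosomes carry them unevenly, with 43 on chromosome 1, 4 on chromosome 2, 15 on chromosome 3, 27 on chromosome 4 and 52 on chromosome 5.

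NBS-LRR proteins, or NLRs, are the intracellular immune receptors of plants, which detect pathogen effectors and set off defence that can include the death of the infected cell. Their shared NB-ARC domain binds ATP or ADP and works as a switch, the leucine-rich repeats (LRR) that follow take part in recognition and autoinhibition, and the part in front is either a Toll/interleukin-1 receptor (TIR) domain or a coiled coil (CC). In genes of the TIR class, the first exon typically encodes the TIR domain, the second the NB-ARC domain and later exons the LRR. The histone variant H2A.Z replaces H2A in nucleosomes, mostly just inside the 5′ end of genes and, at inducible genes, also through the gene body, and the SWR1 complex puts it there.

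The study compared shoots of 4 genotypes of the Columbia-0 ecotype at 13 days after germination, grown on plates under long days. These were the T-DNA insertion mutant *mbd9-3*, which affects the SWR1-associated protein MBD9, the T-DNA insertion mutant *arp6-1*, which affects the SWR1 subunit ARP6, the double mutant *arp6-1 mbd9-3*, and wild type. Each genotype had 2 replicates from separate plates, and each replicate was split into a ChIP with antibodies to the H2A.Z proteins HTA9 and HTA11 and a ChIP of H3, giving 16 libraries. Whole shoots were used, so cell types are mixed, and a single insertion line stands for each mutation. There were 16 lists of summits, the highest points of called peaks. In 8 of them H2A.Z stands over H3 of the same genotype and replicate, and in 8 H2A.Z of 2 genotypes of the same replicate number is compared, which gives the places where a mutant lost H2A.Z. Each summit carries a score, the −log10 q value of the peak caller, which starts at about 2 in every list, and scores of different lists were not compared as levels. A gene was called when a region common to both replicates (summits no more than 200 bp apart) overlapped it. The lists gave between 1137 and 29980 summits, hold no read counts, and have 2 replicates a genotype, so the depth is unknown and an exact permutation test between genotypes cannot reach a p value below 0.333. Shares below are given with exact 95% binomial intervals, which cover counting error over genes only, and genes of one family are not replicates of a condition.

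The sequences under the summits show where in a receptor gene H2A.Z lay. The windows below are 151 bases of the TAIR10.1 genome on the coding strand, 5′ to 3′, centred between the wild-type summits of both replicates, and the capitals mark the stretch from one replicate's summit to that of the other. AT5G45000 (TIR, chr5:18165498-18165648, plus strand) is shown for the highest wild-type score present in both replicates, RPS4 (TIR, chr5:18325791-18325941, minus strand) and RRS1 (TIR, chr5:18326389-18326539, plus strand) as a receptor pair, ADR1 (CC, chr1:12169128-12169278, plus strand) as a helper receptor, and RPM1 (unclassed, chr3:2228728-2228878, minus strand) for a score near the lowest called. Each window lies in coding exon 1, between 237 and 752 bp from the start of its gene.
AT5G45000 window: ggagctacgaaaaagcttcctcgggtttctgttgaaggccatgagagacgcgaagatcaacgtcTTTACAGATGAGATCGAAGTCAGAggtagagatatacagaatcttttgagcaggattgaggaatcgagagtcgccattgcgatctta
RPS4 window: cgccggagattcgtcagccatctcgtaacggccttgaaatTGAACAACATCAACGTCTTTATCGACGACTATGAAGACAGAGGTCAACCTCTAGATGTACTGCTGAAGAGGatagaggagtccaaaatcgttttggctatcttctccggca
RRS1 window: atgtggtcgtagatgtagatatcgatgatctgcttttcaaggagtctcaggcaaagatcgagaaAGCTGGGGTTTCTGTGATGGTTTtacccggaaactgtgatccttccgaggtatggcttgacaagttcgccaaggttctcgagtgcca
ADR1 window: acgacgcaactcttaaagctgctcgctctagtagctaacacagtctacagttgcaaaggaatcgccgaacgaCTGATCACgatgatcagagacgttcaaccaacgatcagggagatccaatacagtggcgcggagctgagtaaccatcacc
RPM1 window: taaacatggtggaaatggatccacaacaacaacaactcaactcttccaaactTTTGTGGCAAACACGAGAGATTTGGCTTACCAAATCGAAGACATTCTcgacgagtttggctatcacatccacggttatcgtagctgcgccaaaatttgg

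The feature the class shares in its coding sequence lies further in. The Walker A motif of the NB-ARC domain, which holds the phosphates of ATP, was searched in the translated genes as glycine, any 4 residues, glycine, lysine and then threonine or serine, and 131 of 141 NBS-LRR genes (92.9%) held it, against 4.42% of the other protein-coding genes. The codons are shown for genes named in the results, with those of the lysine and of the threonine in capitals, at chr5:18326920-18326943 (plus strand), chr5:6077793-6077816 (minus strand), chr1:12169668-12169691 (plus strand) and chr3:2228404-2228427 (minus strand).
RRS1 Walker A: ggtatgcctggcataggaAAGACA
AT5G18350 Walker A: ggtcctcctgggattgggAAGACC
ADR1 Walker A: ggaatgagcggttcagggAAAACC
RPM1 Walker A: gggatgggcggttcagggAAAACT
Across the 130 genes in which it was placed on the genome, the motif lay at a median of 970 bp from the start of the gene and in 5 genes within the first 500 bp.

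H2A.Z over H3 was found in about as many NBS-LRR genes as in other genes, and the counts of the mutants stood in the same order as in the whole genome. In *mbd9-3*, 45 of 141 NBS-LRR genes (31.9%, interval 24.3% to 40.3%) had a common summit, where 29.6% of all protein-coding genes did. In *arp6-1*, 10 (7.09%) had one, with 8.66% of all protein-coding genes, and in *arp6-1 mbd9-3* 1 (0.709%), with 1.26%. In wild type, 65 had one (46.1%, interval 37.7% to 54.7%), with 50.9% of all protein-coding genes. The lists of single replicates gave 53 and 59 genes in *mbd9-3*, 15 and 28 for *arp6-1*, 3 and 4 for the double mutant, and 84 and 70 for wild type. In *arp6-1* the choice of list thus moved the count, with 28 genes in replicate 2 against 10 in the common regions. No summit over H3 in any genotype was found in 49 of the NBS-LRR genes (34.8%), against 34.7% of the other genes.

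Losses of H2A.Z followed the same order. In *mbd9-3* compared with wild type, 8 NBS-LRR genes lost H2A.Z (5.67%, interval 2.48% to 10.9%), with 9.11% of all protein-coding genes, and the lists of single replicates gave 20 and 16. In *arp6-1* it was 61 (43.3%), with 42.8%, and in *arp6-1 mbd9-3* 71 (50.4%), with 53.7%. In *arp6-1 mbd9-3* compared with *arp6-1*, 6 lost H2A.Z further (4.26%), with 2.86%, and the single lists gave 6 and 9. Without regard to gene length, every one of the 8 shares over all genes lay inside the interval of the NBS-LRR genes. When the other genes were weighted to the length classes of the NBS-LRR genes, the share of NBS-LRR genes minus that of the others was −11.25 percentage points for the loss in the double mutant (−3.33 unweighted), −6.26 for *arp6-1* (0.44 unweighted) and −5.96 for *mbd9-3*. So weighted, the share of the other genes lay above the NBS-LRR interval for the double mutant (41.8% to 58.9%) and for *mbd9-3*. For *arp6-1* it lay inside. These weights took no account of repeated sequence. A second check, chosen after seeing the data, kept only genes with at least 90% of their 50-base words unique in the genome. Without length weights, 61.1% of 108 such NBS-LRR genes and 55.7% of the others then lost H2A.Z in the double mutant. This difference was 5.45 percentage points, with 7.42 in *arp6-1* and −3.03 in *mbd9-3*. Length weights within these genes were not tested. The comparisons with wild type share the wild-type libraries.

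**Figure D1:**
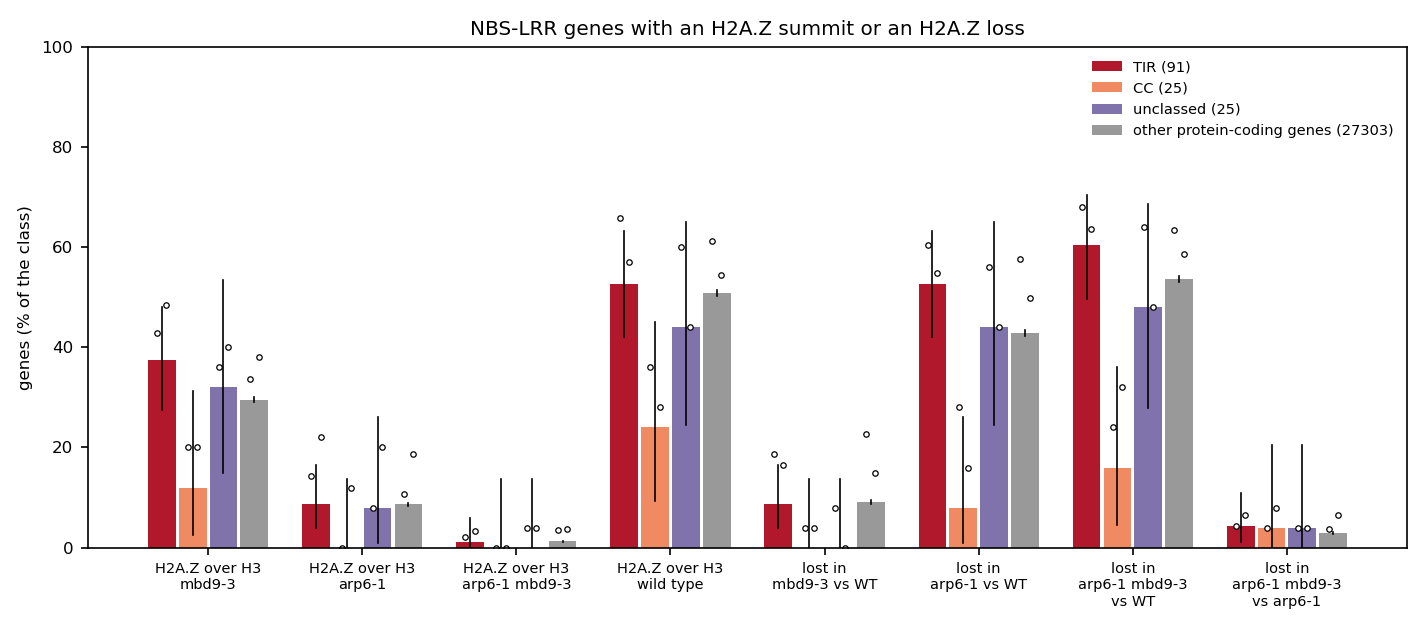
Share of the genes of each class (vertical axis, %) with a common H2A.Z region over H3 in each genotype, or a common loss between genotypes. Bars are regions common to both replicates, open points are the lists of the single replicates, and lines are exact 95% binomial intervals. TIR genes reach 52.7% and CC genes 24% in wild type, and the other protein-coding genes 50.9%.

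Within the family, the genes with CC in their product name had the lowest shares. In wild type 48 of 91 TIR genes (52.7%, interval 42% to 63.3%), 6 of 25 CC genes (24%, interval 9.36% to 45.1%) and 11 of 25 unclassed genes (44%) had a common summit, against 50.9% of the other protein-coding genes. The loss in *arp6-1* was called in 48 TIR genes (52.7%), 2 CC genes (8%, interval 0.984% to 26%) and 11 unclassed genes (44%). The interval of the CC class lay below the 42.8% of the other genes. CC and unclassed genes together had a common wild-type summit in 17 of 50 (34%). Their loss in *arp6-1* was called in 13 (26%, interval 14.6% to 40.3%). Against wild type, the double mutant had a called loss in 55 TIR genes (60.4%), 4 CC genes (16%) and 12 unclassed genes (48%), against 53.7% of the other genes. All 8 losses in *mbd9-3* were in TIR genes, 8.79% of these, near the 9.13% of the other protein-coding genes. The lists of single replicates gave 17 and 15 TIR genes, 1 and 1 CC genes and 2 and 0 unclassed genes.

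Part of the family has little sequence of its own, and the authors kept only uniquely mapping reads. In 33 of 141 NBS-LRR genes (23.4%) fewer than 90% of the 50-base words occurred once in the genome, against 4.78% of the other protein-coding genes. Of these 33 genes, 6 (18.2%) had a common wild-type summit, against 59 of the 108 genes (54.6%) at 90% or more. The other protein-coding genes showed the same split, with 15% and 52.7%. The 3 CC genes without any unique word, AT1G58807, AT1G59124 and AT1G59218, had no summit in any list, nor did AT1G58848 with 0.94%. Among genes at 90% or more, the wild-type share was 59.2% in 71 TIR genes, 35.3% in 17 CC genes and 55% in 20 unclassed genes, and the loss in *arp6-1* 60.6%, 11.8% and 55%. None of the 8 CC genes below 90% was called in wild type or lost in *arp6-1*. The length of the reads was not given in the sources used here, and the part of word repeats in the other differences was not tested.

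In TIR and unclassed genes with H2A.Z, more of it lay deep in the gene than elsewhere, and in the few CC genes it did not. The 65 genes held 143 common wild-type regions, a mean of 2.2 a gene, and 34 (52.3%) had more than 1, against a mean of 1.44 and 30.9% in the other genes with H2A.Z. The centres lay at a median of 1692 bp from the start of the gene, against 459 bp, and 32.4% were within the first 500 bp, against 54%. By class, the medians were 1676 bp for 110 centres in TIR genes, 435 bp for 9 in CC genes and 2331 bp for 23 in unclassed genes, with 35.5%, 55.6% and 8.7% within the first 500 bp. Both replicates showed this, with medians of 2089 and 1930 bp in NBS-LRR genes and 487 and 500 bp in the others. The difference was also present among genes of similar length. Between 3000 and 4500 bp, the median was 1345 bp for 66 centres in NBS-LRR genes and 518 bp for 3628 centres in the others, and between 4500 and 6000 bp it was 1234 bp and 495 bp. Counted per length of gene over genes of all lengths, NBS-LRR genes had fewer regions, 0.223 a kb against 0.308 a kb. Among genes of similar length no such gap was seen. Between 3000 and 4500 bp, 65 NBS-LRR genes held 66 centres and 4665 other genes 3628. Between 4500 and 6000 bp, 45 held 32 and 1358 held 983, and from 6000 bp up 18 held 33 and 863 held 513. The best scores per gene were alike, with medians of 6.05 and 6.12. Of the centres inside NBS-LRR genes, 93% lay in coding exons and 1.41% in introns, against 83.1% and 10.7%.

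In the TIR class, H2A.Z lay near the start of the gene and again far into it, with few regions between. In TIR genes of at least 3000 bp, 42 of 104 centres (40.4%) lay in the first 750 bp, 12 (11.5%) from there to 2500 bp and 50 (48.1%) beyond. Other genes of at least 3000 bp had 61.2%, 20.2% and 18.6% of 5124 centres there. Above 3000 bp the lengths were not matched. Genes of 3000 to 4500 bp, with less room beyond 2500 bp, held 46 of the 104 TIR centres and 3628 of the 5124 others. The part of length in the difference was not tested. In the TIR genes the distal centres came from 23 genes, the proximal ones from 39. CC and unclassed genes of at least 3000 bp had 37%, 25.9% and 37% of 27 centres in these zones. The distal share was thus high in them too, while the low share between was seen in TIR genes. Of all 110 TIR centres, the proximal ones included, 13 (11.8%) lay in the last 500 bp of the gene. In the other genes of all lengths, which were mostly shorter, it was 11.6%. How many of the distal centres lay there was not counted. By exon, the TIR genes with H2A.Z had 1.85 centres per coding kb in exon 1, 0.347 in exon 2 and 0.59 in the later exons. Other genes of at least 3000 bp had 1.68, 0.64 and 0.22, so the density of the TIR class was near that of the others in exon 1, lower in exon 2 and higher in the later exons. Among TIR genes with at least 90% unique words the densities were 1.93, 0.347 and 0.701. When the coding length of genes without H2A.Z was counted too, the summits of the single replicates gave 1.2 and 1.1 per coding kb in exon 1 of TIR genes, 0.376 and 0.258 in exon 2, and 0.444 and 0.362 later. Other genes of at least 3000 bp had 1.2 and 1.05, 0.414 and 0.382, and 0.163 and 0.148. Counted so, the lower density of exon 2 was small in replicate 1, and the higher density of the later exons stood in both replicates. In the CC and unclassed genes together, exon 1 had 18 centres (0.638 per coding kb), exon 2 had 2 and the later exons 6.

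**Figure D2:**
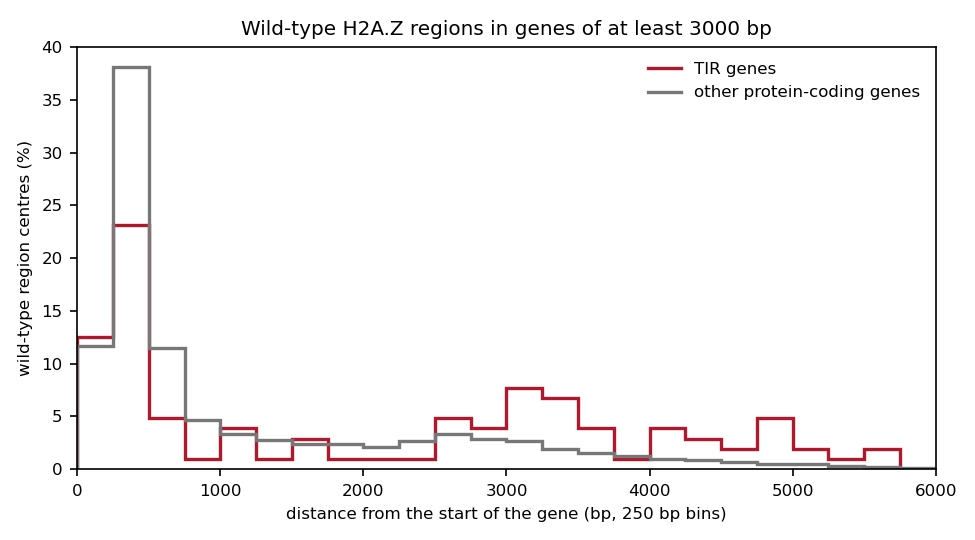
Share of wild-type region centres (vertical axis, %) by distance from the start of the gene (horizontal axis, bp, bins of 250 bp) in TIR genes and in other protein-coding genes, both of at least 3000 bp. Lengths above 3000 bp were not matched. TIR genes hold 11.5% of their centres between 750 and 2500 bp and 48.1% beyond 2500 bp, and the other genes 20.2% and 18.6%.

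In the TIR class, the regions of exon 1 and those further in differed in their calls of loss. Of 40 wild-type centres in exon 1 of TIR genes, 35 (87.5%) had a common loss in *arp6-1* within 200 bp, as did 10 of 16 in exon 2 (62.5%) and 17 of 50 in later exons (34%). In other genes of at least 3000 bp the shares were 73.2%, 55.9% and 48.2%. For losses of the double mutant against wild type they were 92.5%, 50% and 38% in TIR genes, against 87.9%, 69.3% and 52%. The share in exon 1 exceeded that in the later exons by 54.5 percentage points in TIR genes and by 36 in the others. In TIR genes the 40 centres of exon 1 came from 38 genes and the 50 of later exons from 26. Wild-type scores of regions in exon 1 and in later exons were not compared. Whether calls of loss go with the wild-type score was not tested. In the CC and unclassed genes together, losses in *arp6-1* matched 13 of 18 centres in exon 1 (72.2%) and 4 of 6 in the later exons (66.7%). Those in the double mutant matched 13 (72.2%) and 5 (83.3%). These genes cannot show whether the difference is absent, since the later exons had 6 centres from 3 genes. Unclassed genes also had a median of 1 exon, so their exon 1 reached far into the gene. Few wild-type regions had a region over H3 in the mutants without ARP6, with or without a call of loss. In *arp6-1 mbd9-3* over H3, 0 of the 46 proximal wild-type regions of NBS-LRR genes (first 500 bp) and 2 of the 97 others had a common region within 200 bp, and in *arp6-1* 5 and 6. In *mbd9-3*, 27 of the 46 (58.7%) and 39 of the 97 (40.2%) had one.

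**Figure D3:**
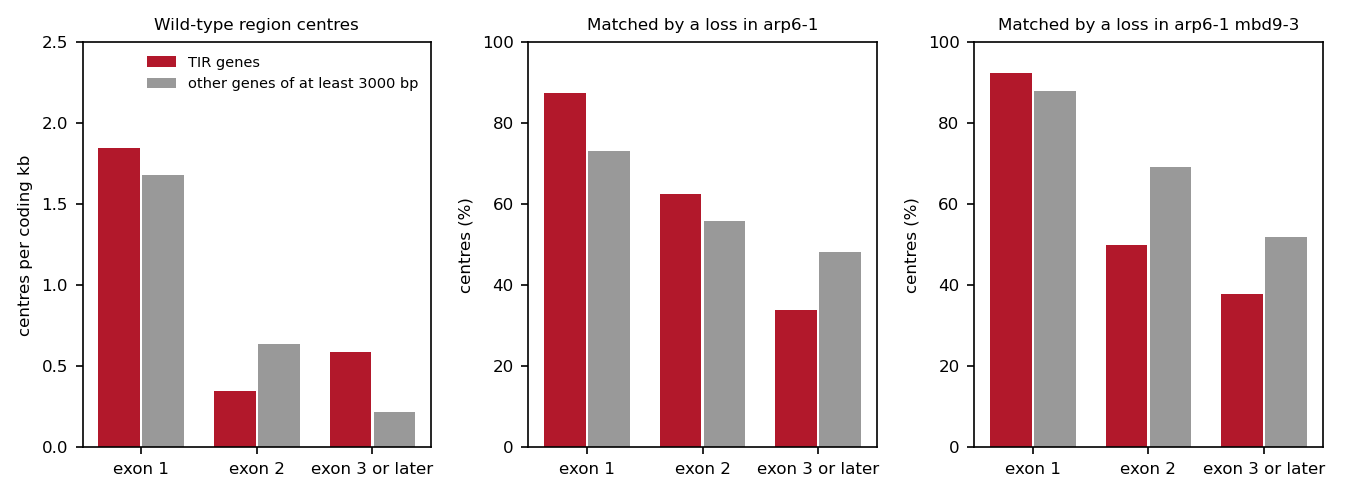
Wild-type region centres per coding kb (left), and the share of them (%) within 200 bp of a common loss in *arp6-1* (middle) and in *arp6-1 mbd9-3* (right), by exon, for TIR genes with wild-type H2A.Z and other such genes of at least 3000 bp. The loss in *arp6-1* was matched at 87.5% of exon 1 centres and 34% of those in exon 3 or later of TIR genes, and at 73.2% and 48.2% in the other genes.

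RPS4 and RRS1 encode a receptor pair that acts as one complex, with RRS1 carrying a WRKY domain that decoys effectors, and their genes stand head to head with 28 bp between their starts. Neither gene had a summit over H3 in any replicate of the 3 mutants. In wild type, RPS4 had a single summit in each replicate, at 5.12 and 3.51, centred 309 bp into the gene, and RRS1 had 5.52 and 5.83, centred at 261 bp, so each gene of the pair carried its own region in exon 1. The loss in *arp6-1* compared with wild type scored 8.87 and 8.80 in RPS4 and 4.75 and 14.58 in RRS1. That in *arp6-1 mbd9-3* scored 11.84 and 10.05 in RPS4 and 12.51 and 16.08 in RRS1. In *mbd9-3*, the direct comparison gave none in RPS4 and 2.70 in replicate 1 alone in RRS1.

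The pair closes a cluster of 7 TIR genes on chromosome 5 (chr5:18283663-18332920), which had H2A.Z in each gene in wild type. A common summit was present in 5 of them in *mbd9-3*, 1 in *arp6-1*, 0 in the double mutant and 7 in wild type, and all 7 lost H2A.Z in both *arp6-1* and the double mutant, while 2 did in *mbd9-3*. AT5G45200 and AT5G45230 held 8 common wild-type regions each, a number that only AT5G18350 elsewhere in the family matched. AT5G45210 kept the cluster's single common region in *arp6-1*, at 2.69 and 5.31, and had 28.49 and 19.43 in the wild-type lists. That region lay in exon 1, near the highest wild-type region of the gene.

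**Figure D4:**
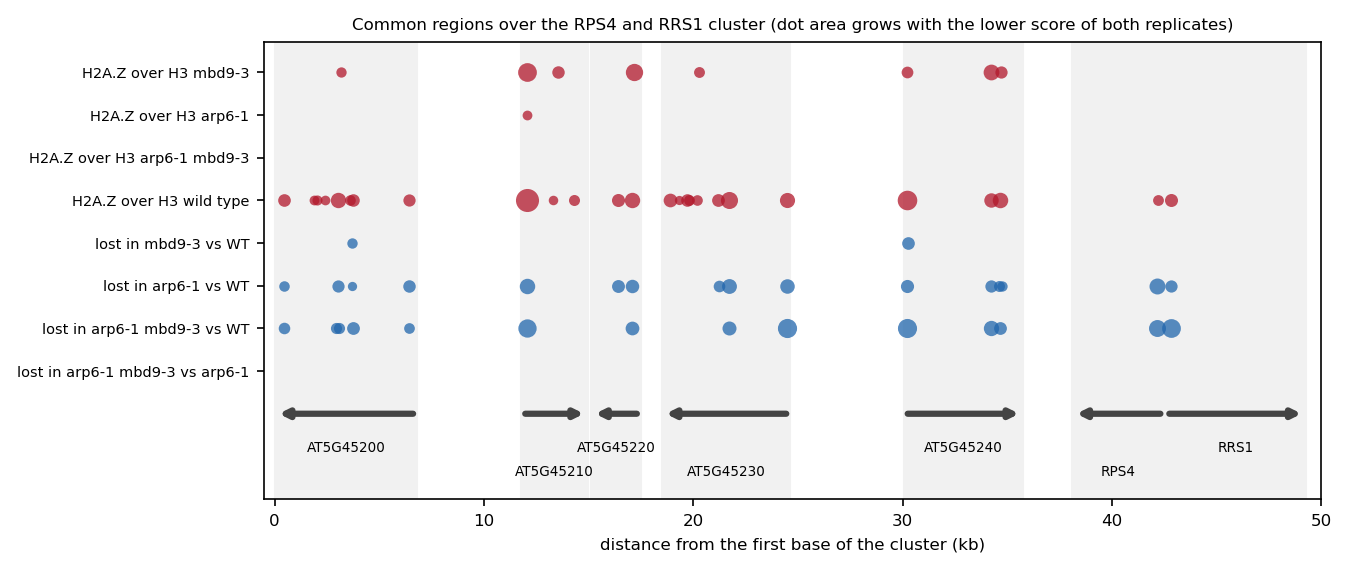
Common regions over the 7 TIR genes of the cluster of RPS4 and RRS1, by distance from its first base (horizontal axis, kb), with a row for each list. Arrows are genes in their direction of transcription, red dots are regions over H3, blue dots are losses, and dot area grows with the lower of the scores of both replicates. Every gene has red dots in wild type, and the row of *arp6-1 mbd9-3* over H3 has none.

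Other clusters of resistance genes looked different. The cluster of RPP4, RPP5 and SNC1 on chromosome 4, with 8 TIR genes, had a common wild-type summit in 2, AT4G16900 and AT4G16920. RPP4, which acts against downy mildew, had no summit in any list, and RPP5, with the same role in other accessions, had 1, a loss in *arp6-1* of 7.53 in replicate 1 alone. SNC1, in which a known gain-of-function allele causes autoimmunity, had no summit over H3 in any genotype and losses of 4.65 for *mbd9-3*, 4.32 for *arp6-1* and 4.62 for the double mutant, each in replicate 1 alone. Of the words of RPP4, RPP5 and SNC1, 81.4%, 52.5% and 78.4% were unique. The cluster of RPP7 on chromosome 1, with 8 CC and unclassed genes, had 2 with wild-type H2A.Z and 0 losses common to both replicates. RPP7, at 19695 bp the longest of all 141 genes and 92.3% unique, had no summit. AT1G58807, AT1G59124 and AT1G59218, without any unique word, and AT1G58848, with 0.94%, are genes of this cluster. The 4 genes from AT1G61180 to AT1G61310, with 71.3% to 79.8% of their words unique, had 0 in wild type. The 6 TIR genes from AT1G63730 to AT1G63880 had 5, and all 6 lost H2A.Z in *arp6-1 mbd9-3*. Clustered and single genes had similar shares, since 46 of 97 genes with a neighbour of the family within 50 kb (47.4%) and 19 of 44 single genes (43.2%) had wild-type H2A.Z. All 8 losses in *mbd9-3* fell in the clustered genes, 8.25% of these, near the 9.11% of all protein-coding genes.

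Of the 5 highest wild-type scores, 4 were in exon 1 of TIR genes and 1 was in the CC gene ADR1. AT5G45000 had common summits of 22.61 and 19.23 in *mbd9-3* and 10.65 and 8.72 in *arp6-1*, none in the double mutant, and 26.84 and 20.07 in wild type. AT3G51560 scored 23.28 and 29.59 in *mbd9-3*, 7.56 in *arp6-1* and 3.17 in the double mutant, these last in replicate 2 alone, and 20.90 and 18.15 in wild type. Its 4 wild-type regions lay at 154, 632, 3609 and 3728 bp. AT5G45240 scored 17.29 and 13.72 in wild type. AT5G18350 had 5 common regions in *mbd9-3*, a summit of 4.55 in replicate 1 of *arp6-1*, none in the double mutant, and 8 common regions in wild type, from 242 to 3353 bp. AT1G56540 had 9.96 and 16.70 in *mbd9-3*, 4.31 and 10.47 in *arp6-1*, none in the double mutant, and 12.51 and 7.24 in wild type, where it held 5 common regions. Among the other TIR genes studied in the field, RLM1, which protects against blackleg, had 6.48 and 9.34 in *mbd9-3* and 10.37 and 11.47 in wild type. CSA1, named for a shade-avoidance phenotype, had 4.24 in replicate 2 of *mbd9-3* alone and 11.79 and 14.27 in wild type.

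ADR1 and NRG1.2, helper receptors that pass on the signal of the sensing NLRs, were the CC genes with the highest wild-type scores. ADR1 had 11.60 and 11.46 in *mbd9-3*, 5.92 in replicate 2 of *arp6-1* alone, none in the double mutant, and 22.25 and 16.89 in wild type. NRG1.2 had 13.10 and 21.51 in *mbd9-3* and 12.31 and 11.53 in wild type, and its losses in *arp6-1* scored 8.46 and 5.28. The neighbouring gene NRG1.1, of nearly the same length and also 97.7% unique, had no summit in any of the 16 lists. Both act as helpers, and 1 of the pair was called while the other was not. The CC receptor RPP8 had no summit. Of the unclassed receptors, RPM1, which guards RIN4, had 2.99 and 2.27 in wild type, with losses of 4.86 and 4.35 in *arp6-1*. RPS2, which also guards RIN4, had 3.77 in replicate 1 of wild type alone, and losses of 5.65 and 5.44 in *arp6-1*. RPP13 and SUMM2 had none.

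Each of the 8 losses in *mbd9-3* was at 1 region of its gene. In 5 of them, AT4G36140, AT5G45240, AT5G46510, RPS6 and TTR1, it lay between 193 and 330 bp from the start, in exon 1, and in AT5G35510, AT5G45200 and AT4G19520 it lay at 1361, 3108 and 7671 bp. AT5G35510 had the highest lower score, with 6.09 and 5.75, with no summit over H3 in any mutant and 6.52 and 4.85 in wild type. AT5G45240 had 5.16 and 7.52, and AT4G19520 had 4.63 and 6.91. RPS6, a receptor for a bacterial effector, had 5.49 and 3.43, and TTR1, which like RRS1 carries a WRKY domain, had 3.36 and 6.56. Of the 8 genes, 3 had no common wild-type region. AT4G36140, RPS6 and TTR1 had a wild-type summit over H3 in replicate 1 alone, of 3.93, 2.89 and 2.40. AT5G46510, at 54.9% unique, had 12.04 and 3.57 in wild type. Of the 65 genes with common wild-type H2A.Z, 5 (7.69%, interval 2.54% to 17%) lost it in *mbd9-3*, against 14.4% of the other genes with wild-type H2A.Z.

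All 10 genes with a common summit in *arp6-1* also had one in *mbd9-3*, as did 93.8% of the other genes with one in *arp6-1*. Of the 45 genes with a common summit in *mbd9-3*, 5 had no common one in wild type, against 329 of the 8068 other genes. A common summit in *mbd9-3* was present in 40 of the 65 genes with one in wild type (61.5%), against 55.7% of the other genes. AT3G04220 was the 1 gene with a common summit in *arp6-1 mbd9-3*, at 5.26 and 3.13. It lay 2972 bp into the gene, in exon 4, and AT3G04220 had 8.38 and 11.46 in *mbd9-3*, while *arp6-1* had 4.41 and 5.18 and wild type 7.08 and 5.89. No common loss was called there in any comparison.

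The 6 genes that lost H2A.Z further in *arp6-1 mbd9-3* compared with *arp6-1* were AT1G27180, ADR1, AT5G45000, AT4G14370, AT1G59780 and AT1G63870. None of them was among the 8 lost in *mbd9-3*, and of the other genes with such a further loss 7.07% were lost there. A common summit in *arp6-1* was present in 5 of the 6 (83.3%), against 79.7% of those other genes. AT5G45000 scored 5.56 and 12.26, AT1G27180 7.52 and 6.01, ADR1 10.64 and 5.98, AT4G14370 4.98 and 5.41 and AT1G59780 3.86 and 2.43. In AT1G63870 the region reached the end of the gene from outside, with its centre beyond it, and no summit lay in the gene. AT4G14370 was the only one of the 6 without a loss in *arp6-1* compared with wild type. It kept summits of 8.59 and 15.64 in *arp6-1*, and its loss in *arp6-1 mbd9-3* compared with wild type scored 12.71 and 8.91.

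**Figure D5:**
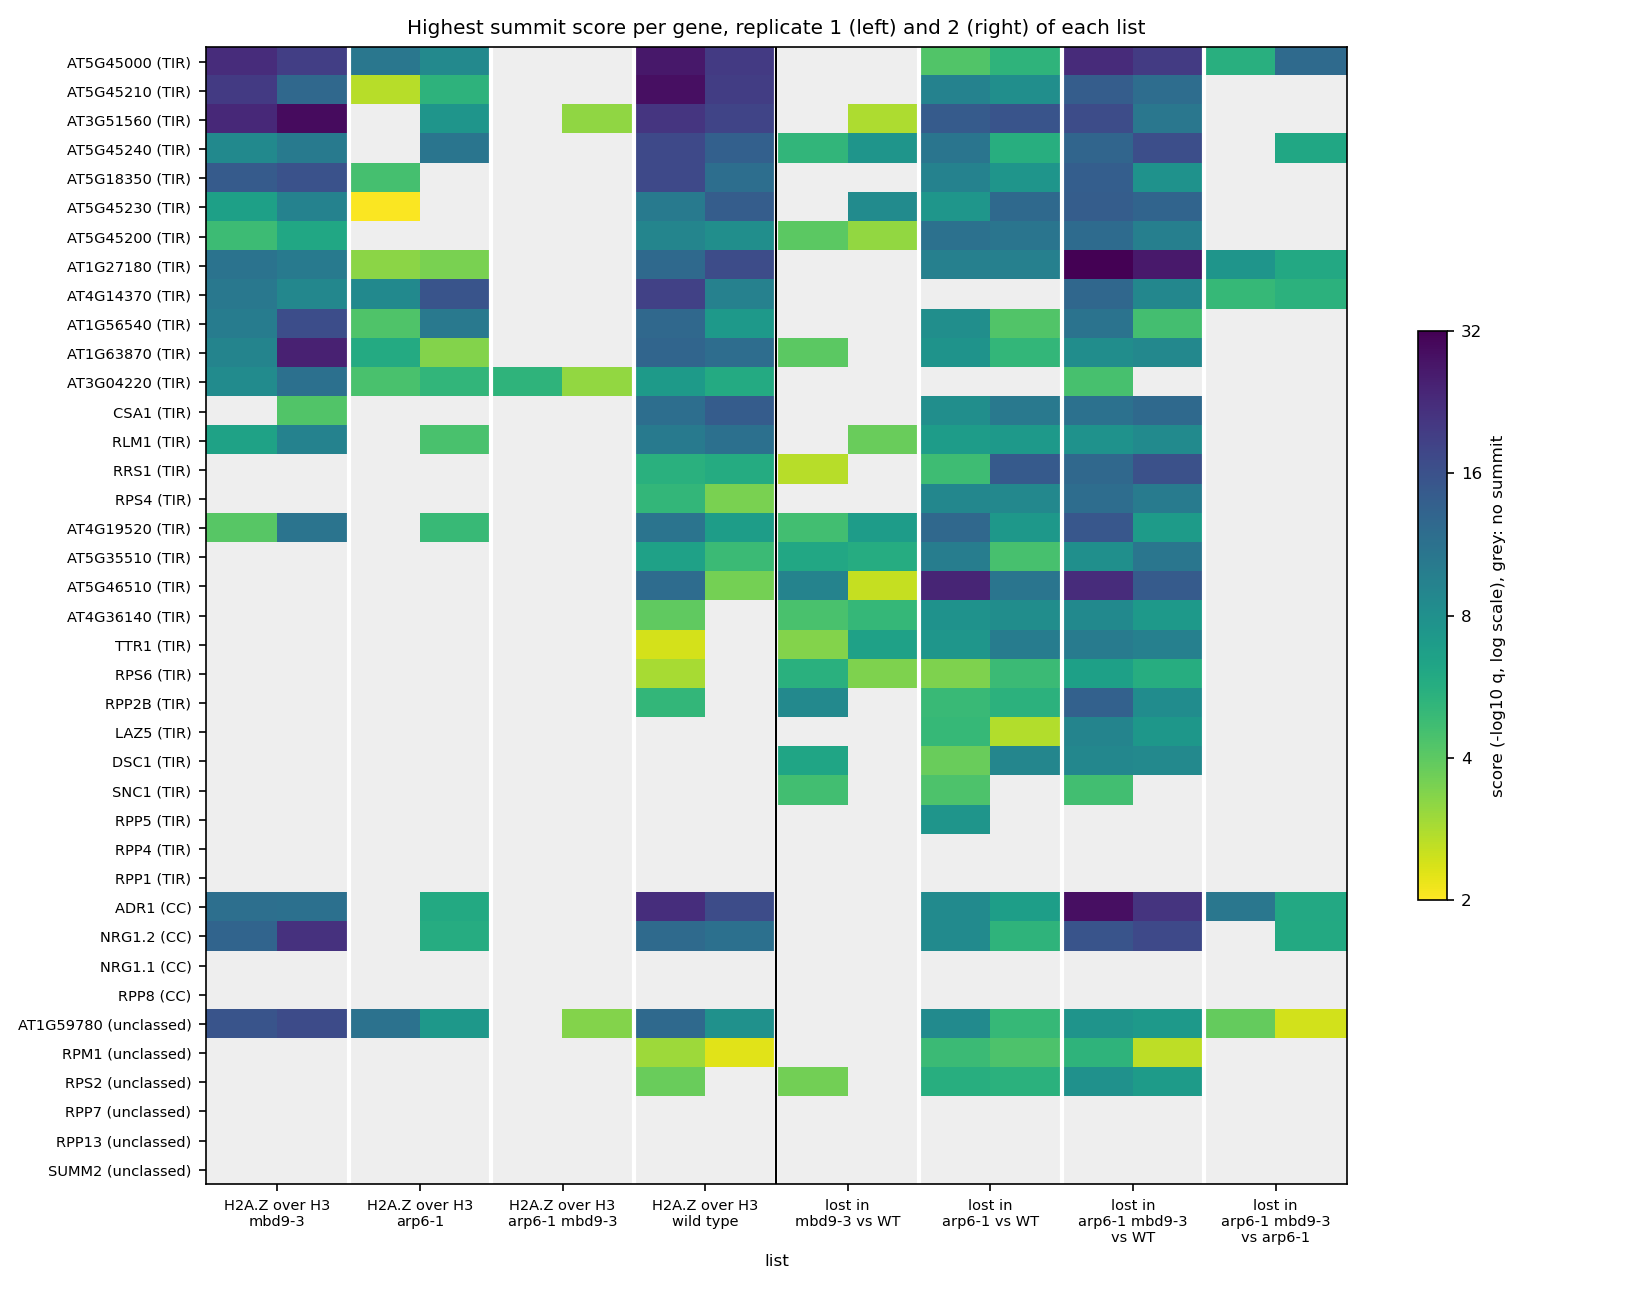
Highest summit score (−log10 q, colour on a log scale) in each of the named NBS-LRR genes (rows) and the 16 lists (columns, replicate 1 left of replicate 2), with lists over H3 left of the black line and losses right of it. Grey marks a gene with no summit in that list. Scores are comparable down a column. The columns of *arp6-1 mbd9-3* over H3 are grey for all but 3 genes, and RPP4, RPP1, NRG1.1, RPP8, RPP7, RPP13 and SUMM2 are grey throughout.

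Receptors known from function were counted apart. Of 33 such genes listed, 26 met the rule, and of these 3 had a common summit in *mbd9-3*, 0 in either *arp6-1* or the double mutant, and 7 in wild type, where 29.6%, 8.66%, 1.26% and 50.9% of all protein-coding genes did. Losses numbered 1 of the 26 for *mbd9-3*, 12 for *arp6-1* and 13 for the double mutant (50%). Over all protein-coding genes the shares of these losses were 9.11%, 42.8% and 53.7%. Among the 26, RPP1, RPP4, RPP5, RPP8, SNC1 and VICTR had between 31.7% and 81.4% of their words unique. The 7 that did not meet the rule, among them ZAR1, CHS3 and the helpers ADR1-L1 and ADR1-L2, were not analysed here. DSC1 and LAZ5, both known from autoimmune phenotypes, had no wild-type summit over H3 and losses in *arp6-1* of 3.75 and 8.92 and of 4.98 and 2.76. In the whole family, 11 of the 61 genes lost in *arp6-1* (18%) had no common wild-type summit, against 18.1% of the other genes lost there, and DSC1 and LAZ5 were the 2 of the 11 without one in either wild-type list. The list was made with results of these data known and is a description only.

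Of 17 genes that act with NLRs, chosen in the same way, 2 had a common summit in *mbd9-3*, 0 in either *arp6-1* or the double mutant, and 6 in wild type, and losses numbered 2 for *mbd9-3*, 7 for *arp6-1* and 8 for the double mutant. Over all genes the wild-type share was 50.9% and those of the losses 9.11%, 42.8% and 53.7%. PAD4, which with EDS1 carries the signal of TIR receptors, had wild-type summits of 9.83 and 5.94 and a loss in *mbd9-3* of 7.48 and 5.56. EDS1 had 5.89 and 3.66 in wild type and losses in *arp6-1* of 4.71 and 5.43, with none in *mbd9-3*. SAG101, the partner of EDS1 in the branch of the NRG1 helpers, had 6.61 and 3.97 in *mbd9-3* and 6.89 and 4.24 in wild type, and a loss in *arp6-1* in replicate 1 alone. MOS1, a regulator of SNC1 expression, had no wild-type summit over H3 and a loss in *mbd9-3* of 7.03 and 5.20. RIN4, PBS1 and SGT1B had no summit in any list.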

How the data were processed

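H2A.Z and H3 ChIP-seq of 4 genotypes with 2 replicates was used. The authors aligned reads to TAIR10 with Bowtie, keeping those that map to 1 place. Duplicates were taken out with SAMtools. MACS2 2.1.1 then called peaks in each replicate (q value below 0.01, extsize 200 bp). The deposited scores are on a −log10 scale of these q values. How libraries of different genotypes were scaled before losses were called was not given in the sources used here, and the lists hold no counts, coverage or peak edges. Another file, which only names samples and files, gave the sample of each list.

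Each summit was widened by 100 bp to either side. Where widened summits of both replicates overlapped, the overlap was a common region, and its score is the best score of whichever replicate had the lower one. A gene was called where a common region overlapped it by at least 1 bp. Wild-type regions were matched to other common regions with centres within 200 bp. Exons were those of the transcript with the longest coding sequence. Uniqueness is the share of 50-base words of a gene that occur once in the genome on either strand. Genes no more than 50 kb apart formed a cluster. With the TAIR10.1 assembly, 0 summits lay beyond chromosome ends, a check that would not detect a shift of positions inside a chromosome. The joining of summits was tested on simulated data. Python 3.11.15, numpy 2.4.6, scipy 1.17.1 and matplotlib 3.10.9 were used. The sequences were read from the TAIR10.1 assembly of RefSeq.

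The members and lists were chosen with earlier results of these data known. Genes were named when they had a studied function, one of the 5 highest lower scores or the 5 largest numbers of common regions in wild type, a further loss in *arp6-1 mbd9-3*, one of the 5 highest scores of loss in *mbd9-3*, a common region in *arp6-1 mbd9-3*, or no wild-type summit and one of the 5 greatest lengths. AT4G16940 and WRR4, of the last kind, are given with the other observations. A named gene and a motif sequence are not reported here. Genes named outside this rule, as parts of clusters, among the other losses in *mbd9-3* and for lack of unique words, were chosen after their values were seen.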

Additional observations from a re-analysis of the deposited data

How the results depend on the processing

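The counts of NBS-LRR genes were recomputed under 9 alternatives each, and 58 of 72 stayed within 1.5 times of the reported count. The alternative of genes of at least 1500 bp could not move a count. It left out AT4G16857 alone, which had no summit in any list. A score of at least 5 gave 25 genes with a common summit in *mbd9-3* (45 reported), 3 in *arp6-1* (10), 0 in *arp6-1 mbd9-3* (1) and 41 in wild type (65), and 2 losses in *mbd9-3* (8), 30 in *arp6-1* (61) and 3 further losses in *arp6-1 mbd9-3* (6). Joining at no more than 100 bp gave 0 in *arp6-1 mbd9-3*. Leaving out 1 replicate gave 15 to 28 genes with a summit in *arp6-1*, 3 to 4 in *arp6-1 mbd9-3*, 16 to 20 losses in *mbd9-3* and 7 to 10 further losses. The difference between the percentage of NBS-LRR genes and that of other genes changed sign in 10 cases. It was −1.37 in *mbd9-3* with a score of at least 5 (2.37 reported) and 0.95 in *arp6-1* without replicate 1 (−1.57), while without replicate 2 it kept its sign there at −0.15. For the loss in *arp6-1* (0.44) it was −0.21 with joining at no more than 500 bp, −1.50 with a score of at least 5, −3.35 without replicate 1, −3.34 without replicate 2, −0.96 with a summit of each replicate inside the gene and −6.26 with the other genes standardised to the length classes of the NBS-LRR genes. With only genes of at least 90% unique words, a choice made after seeing the data, it was 1.92 in wild type (−4.79) and 5.45 for the loss in *arp6-1 mbd9-3* (−3.33). The cause was not tested. No paired analysis was possible because the counts come from no test. With 2 replicates and no read counts, differences of a few genes between the classes could not be told from counting error, and the read length, which sets how many places are unique, was not given in the sources used here.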

Other observations

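AT4G16940, a TIR gene of the cluster of RPP4 and RPP5, had summits over H3 in *mbd9-3* of 4.94 and 4.38 and none in either wild-type list, with 72.2% of its words unique. WRR4, which acts against white rust, had a loss in *arp6-1* of 2.87 in replicate 1 alone and no other summit in 6068 bp. RPP2B, a downy mildew receptor, had losses of 4.91 and 5.39 in *arp6-1* and of 13.54 and 8.27 in *arp6-1 mbd9-3*, and a wild-type summit over H3 of 5.11 in replicate 1 alone. LOV1, which confers sensitivity to a fungal toxin, had a loss of 4.09 in replicate 1 of *arp6-1 mbd9-3* alone. SOC3 had 3.96 in wild type and a loss of 2.13 in *arp6-1*, both in replicate 2 alone. VICTR, at 31.7% unique the least of the TIR genes, had a loss of 2.02 in replicate 1 of *arp6-1 mbd9-3* alone. RPP1, at 53.9% unique, had no summit. The highest common wild-type windows had a median GC content of 44.4% in NBS-LRR genes and 46.4% in the other genes, where whole genes had 38.9% in both.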
